A study of Homo sapiens with 12 samples.

Results

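SOX11 and 9 transcription factor genes that set B cell or plasma cell identity (PAX5, EBF1, IKZF1, SPIB, POU2AF1, POU2F2, IRF4, PRDM1 and BCL6) were followed in the mantle cell lymphoma line JEKO-1, of human origin, under an inhibitor of nuclear export and a salicylate. The genes were taken by name, 10 of the 64253 genes in the count table, not by a threshold on a measured value, though earlier results of these data were known when they were chosen. Cells were kept for 48 h with DMSO (the solvent of KPT-330, used as control), with choline salicylate (CS, a salicylate salt diluted in PBS), with KPT-330 (selinexor, which blocks the export receptor XPO1, also called CRM1), or with KPT-330 and CS together. Each condition had 3 RNA libraries, 12 in all, from this 1 line. The labels give no concentration for the sequenced cells. They also do not say that libraries of 1 group are separate cultures, so a p-value here reflects only the spread among libraries, which may be technical.

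SOX11, a high mobility group factor of the nervous system, is not made by normal B cells and is the nuclear marker by which most conventional mantle cell lymphomas are recognised. EBF1 and PAX5 commit a cell to the B lineage and keep it there, with IKZF1 (Ikaros) acting from the first lymphoid steps. SPIB, an ETS factor, and the octamer factor POU2F2 with its coactivator POU2AF1 serve the mature B cell, while BCL6 runs the germinal centre programme. IRF4 and PRDM1 (Blimp-1) drive the exit to the plasma cell. PRDM1 represses PAX5 and BCL6, and BCL6 represses PRDM1, so the pair is commonly read as a switch between the B cell and the plasma cell state.

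The promoters of these genes are shown because several of the factors are known to bind each other's genes. Windows from 250 bases before to 50 bases after a transcription start were taken from RefSeq (GRCh38.p14). There were 12 windows for 8 of the 10 genes, and SOX11 and POU2AF1 had no entry. In each line the sequence is written 5′ to 3′ on the gene's own strand in lower case, with a motif match in capitals.
SPIB, chr19:50418688-50418937, plus strand: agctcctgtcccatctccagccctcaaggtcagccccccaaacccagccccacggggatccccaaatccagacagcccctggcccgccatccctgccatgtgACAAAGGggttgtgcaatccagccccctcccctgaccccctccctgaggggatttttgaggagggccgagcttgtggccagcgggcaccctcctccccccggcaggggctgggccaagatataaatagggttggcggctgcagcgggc
IRF4, chr6:391502-391751, plus strand: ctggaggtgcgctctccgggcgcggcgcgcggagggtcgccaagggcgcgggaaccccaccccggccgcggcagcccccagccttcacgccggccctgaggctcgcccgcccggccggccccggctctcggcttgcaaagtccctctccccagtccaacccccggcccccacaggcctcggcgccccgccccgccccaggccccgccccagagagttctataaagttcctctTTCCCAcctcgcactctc
PRDM1, second window, chr6:106098691-106098940, plus strand: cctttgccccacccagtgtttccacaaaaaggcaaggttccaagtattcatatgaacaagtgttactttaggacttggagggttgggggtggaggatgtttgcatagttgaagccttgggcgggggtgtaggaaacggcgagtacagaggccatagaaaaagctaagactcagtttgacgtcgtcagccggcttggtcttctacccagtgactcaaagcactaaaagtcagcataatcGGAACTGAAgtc
BCL6, first window, 24 bases after the start, chr3:187745419-187745442, minus strand: tgcaagaagtTTCTAGGAAaggcc
The first 3 are the 250 bases before a start. The SPIB capitals are the SOX motif ACAAAGG, 148 bases before the start, which 5.33% of all 35116 windows held. The IRF4 capitals are the Ikaros core TGGGAA read on the opposite strand, 18 bases before the start. That core is short and was in 24.0% of all windows, also in the EBF1 window and in 1 IKZF1 window.

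The PRDM1 capitals match GGAANNGAA, the composite of an ETS and an IRF site that SPIB can bind with IRF4, 12 bases before the start. It was in 7.79% of windows, EBF1's included. The BCL6 capitals are the BCL6 motif TTCCTAGAA on the opposite strand, 37 to 45 bases after its own start, present in 0.373% of windows. The octamer ATGCAAAT (1.77% of windows), the EBF1 motif CCCNNGGGA (8.87%) and the PRDM1 and IRF motif GAAAGTGA (1.44%) matched none of the 12 windows. Both strands were searched over all 300 bases, and SOX, ETS or IRF letters may overlap one another. A match is only a description of letters, and its absence says that these letters are not in this window.

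Libraries held between 35325563 and 59490178 gene counts, and all 10 genes were read well enough to be tested, with between 63 and 25141 reads in a library. Levels are CPM, the counts of a gene scaled to a fixed library size. Differences are log2 fold changes ± SE, and a gene is said to rise or fall where its adjusted p by edgeR (quasi-likelihood test, Benjamini-Hochberg over 19460 genes) was 0.05 or less. The 9 B cell markers summed to between 3132 and 4666 CPM in every library, with none of them at 0 reads. That sum was 3132 to 3389 CPM in DMSO, 3620 to 3903 in CS, 4486 to 4666 in KPT-330 and 4124 to 4217 with both drugs. The 8 T cell markers summed to between 0.558 and 3.33 CPM, with 1 at 0 reads in all libraries, and the 9 myeloid markers to between 2.03 and 5.89 CPM, with 3 at 0. Natural killer, epithelial and fibroblast markers reached at most 3.34 CPM in sum and erythroid markers 0.0603 CPM. The T cell sum was highest with KPT-330 (2.92 to 3.33 CPM) and the myeloid sum in DMSO (3.35 to 5.89 CPM), and the part of such low levels in the results was not tested.

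Per base of gene length, the factors fell into a high and a low set in control cells. In RPKM, which is CPM per kilobase of gene length, IKZF1 stood highest at 34.4 ± 1.12 (SD, n = 3). POU2F2 (28.9 ± 2.85 RPKM), PAX5 (27.9 ± 2.91), SPIB (27.0 ± 3.51) and POU2AF1 (23.7 ± 0.68) followed, and POU2F2, PAX5 and SPIB lay within one another's spread. IRF4 was at 16.3 ± 0.72, SOX11 at 9.87 ± 0.70 and EBF1 at 6.11 ± 0.38 RPKM. PRDM1 at 0.761 ± 0.042 and BCL6 at 0.342 ± 0.037 RPKM were the lowest of the 10, so the opposed regulators of germinal centre and plasma cell were both present only at low level. Each of the low ones still had at least 63 reads in every library. PRDM1 lay above BCL6 in each DMSO library.

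**Figure D1:**
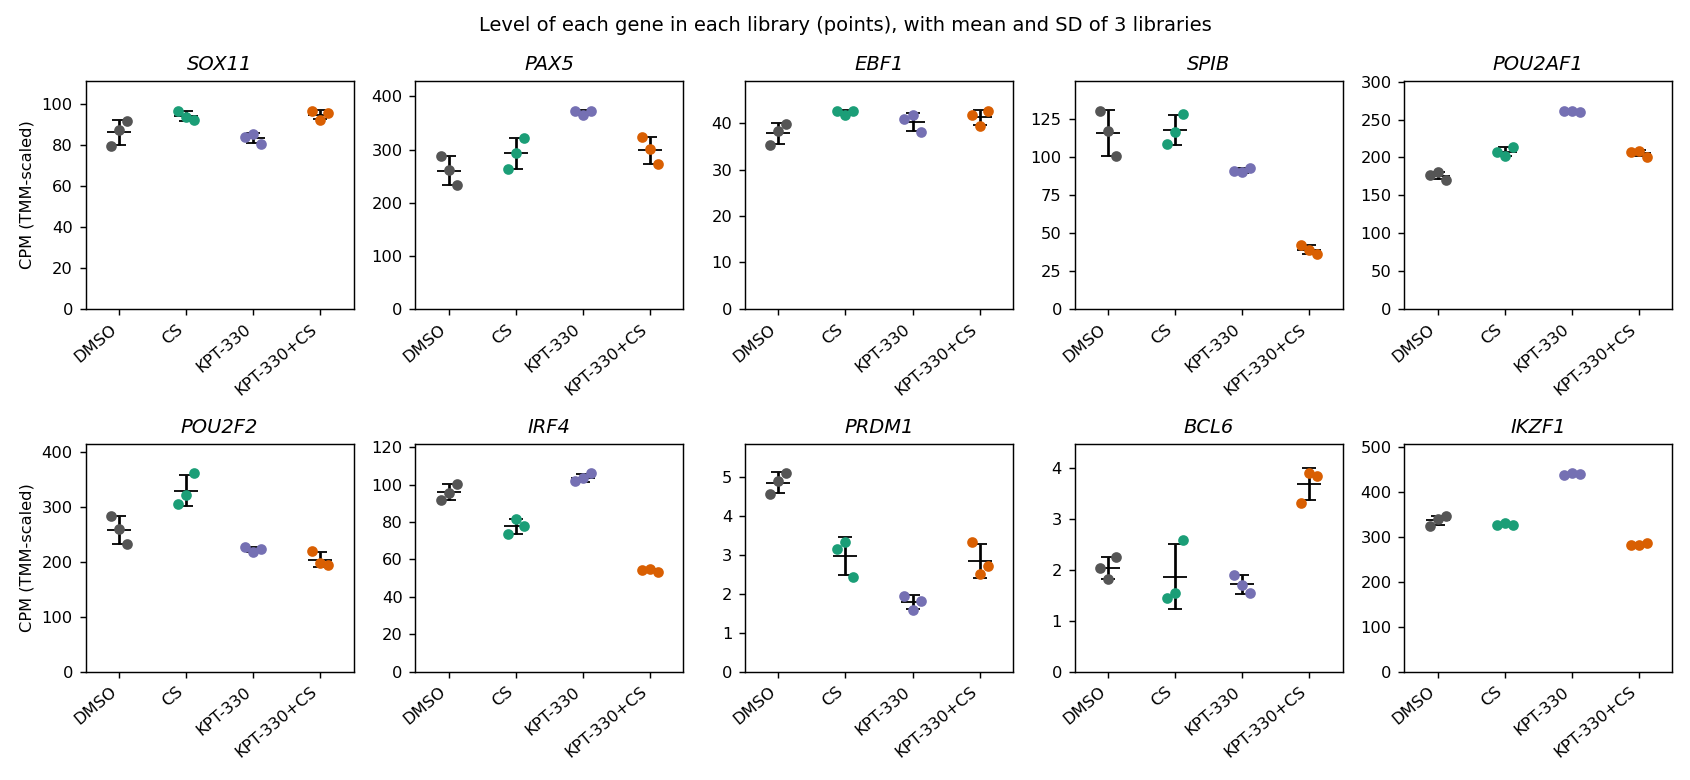
CPM of each of the 10 genes (1 panel per gene, linear axis from 0) in the 3 libraries of DMSO, CS, KPT-330 and KPT-330 with CS; points are libraries, bars the group mean and its SD. SPIB is lowest with both drugs (35.8 to 41.9 CPM against 89.7 or more elsewhere), and EBF1 stays between 35.2 and 42.7 CPM in all 12 libraries.

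With KPT-330 alone 3 of the 10 genes rose (PAX5, POU2AF1, IKZF1) and 3 fell (SPIB, POU2F2, PRDM1). All genes tested also went both ways, with 48.5% called in this comparison, 24.7% higher and 23.8% lower. CS alone moved 4, POU2AF1 and POU2F2 upwards and IRF4 and PRDM1 downwards, against 8.88% of all genes. With both drugs 2 rose over DMSO (POU2AF1, BCL6) and 5 fell (SPIB, POU2F2, IRF4, PRDM1, IKZF1), against 55.5%. None of the 10 passed the study's own size limit, an absolute log2 fold change over 2, in any of these comparisons. Few of all 19460 genes did: 588 were called beyond that limit with KPT-330, 28 with CS and 848 with both drugs. In bulk RNA, fewer cells of a type and less RNA per cell cannot be told apart.

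Adding CS to KPT-330 changed 8 of the 10, with SOX11, PRDM1 and BCL6 higher and PAX5, SPIB, POU2AF1, IRF4 and IKZF1 lower than with KPT-330 alone, against 37.6% of all genes. Adding KPT-330 to CS raised BCL6 and lowered SPIB, POU2F2, IRF4 and IKZF1, 5 genes against 47.8% of all. Between the single drugs 8 genes differed, against 42.8%. SOX11, SPIB, POU2F2 and PRDM1 were higher with CS, and PAX5, POU2AF1, IRF4 and IKZF1 with KPT-330. The comparisons share groups of libraries, so these counts are not independent of each other. The median log2 fold change of the 10 was 0.02 for KPT-330, 0.07 for CS and -0.06 for both drugs, beside 0.04, -0.01 and 0.04 for all genes. The median absolute log2 fold change was 0.30, 0.17 and 0.29, beside 0.37, 0.16 and 0.45 for all genes.

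**Figure D2:**
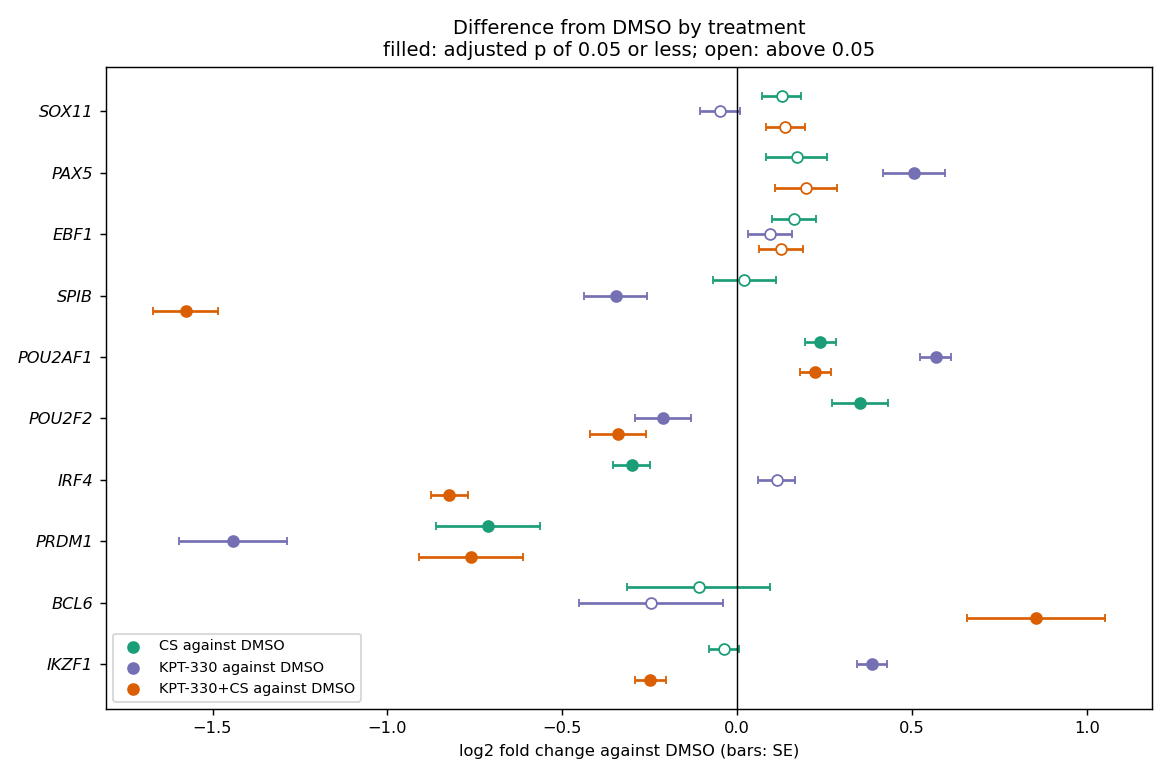
Log2 fold changes with SE of the 10 genes in KPT-330, CS and KPT-330 with CS, each against DMSO; filled points have an adjusted p of 0.05 or less. PRDM1 has its lowest value with KPT-330 (-1.44) and SPIB with both drugs (-1.58), while SOX11 and EBF1 lie between -0.05 and 0.16.

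SOX11 (ENSG00000176887, chromosome 2, 5692667 to 5701385 of hg38, plus strand), the lymphoma marker, moved little. Its 3 libraries read 79.5, 87.3 and 91.4 CPM in DMSO, 84.0, 85.1 and 80.6 in KPT-330, 96.5, 93.5 and 92.0 in CS, and 96.6, 92.2 and 95.4 with both drugs. All 6 libraries with CS lay above all 6 without it. The size of that gap was small, from 91.4 to 92.0 CPM. Against DMSO no treatment passed: the log2 fold change was -0.05 ± 0.06 for KPT-330 (95% interval -0.18 to 0.08, adjusted p = 0.495 by edgeR), 0.13 ± 0.06 for CS (-0.0023 to 0.26, adjusted p = 0.193) and 0.14 ± 0.06 for both drugs (0.01 to 0.27, adjusted p = 0.0510). The last passed in 7 alternatives, among them without DMSO replicate 3 (0.21, adjusted p = 0.00763) and without CS replicate 3 (0.15, adjusted p = 0.0498).

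Against KPT-330 alone SOX11 was higher with both drugs (0.19 ± 0.06, adjusted p = 0.0186 by edgeR) and with CS (0.18 ± 0.06, adjusted p = 0.0221). Each call was lost in 6 alternatives. The first was lost without KPT-330 replicate 1 or 3 and without combination replicate 1 or 3 (0.16 to 0.19), and by DESeq2 (adjusted p = 0.0643). The second was lost without KPT-330 replicate 1 or 3 and without CS replicate 1 or 2 (0.15 to 0.18), and with library size alone (0.08, adjusted p = 0.172). In the order of its group means, both drugs, CS, DMSO and KPT-330, no neighbours differed by the test. The interaction of the drugs, the combination's log2 fold change minus the sum of both single ones, was 0.06 ± 0.08 (adjusted p = 0.652). SOX11 shares exon sequence with AC010729.1, a transcript on the same strand that held 886 reads in all, 1.69% of SOX11's.

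Of 12 other SOX genes, 4 had enough reads to be tested (SOX4, SOX6, SOX12 and SOX30). All 4 were higher with both drugs than in DMSO, where 29.3% of all genes were called higher, and no test compared them with SOX11. SOX4, a relative of SOX11 in the SOXC group that lymphoid cells need early, went from 56.3 ± 4.47 CPM in DMSO to 64.7 ± 0.99 in KPT-330, 72.5 ± 3.03 in CS and 108 ± 1.33 with both (SD, n = 3). Its log2 fold change with both drugs was 0.93 ± 0.06 (adjusted p = 2.53e-08 by edgeR), and it was 0.73 ± 0.06 above KPT-330 alone. SOX12, the third SOXC member, stood at 18.4 ± 3.80 CPM in DMSO and 28.7 ± 5.02 with both drugs (0.64 ± 0.16), and SOX6 and SOX30 were below 3 CPM in every group mean. KPT-330 alone raised 2 of the 4, SOX4 and SOX12. With counts corrected for GC content neither of these was called for KPT-330, and without DMSO replicate 2 only 1 was.

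Among the genes linked to SOX11 in mantle cell lymphoma, which include PAX5, BCL6 and PRDM1, 16 of 17 were tested. With KPT-330 5 were higher and 5 lower, with CS 0 and 1 (0 and 0 without CS replicate 3), and with both drugs 6 and 4. Without CS replicate 3, 896 of all genes were called for CS in place of 1729. For this list and those that follow, the background is the share of all 19460 genes tested: with KPT-330 24.7% were higher and 23.8% lower, with CS 3.76% and 5.13%, and with both drugs 29.3% and 26.2%. The shares called here, 62.5%, 6.25% and 62.5%, stand beside 48.5%, 8.88% and 55.5% of all genes. CD70, a tumour necrosis factor ligand, rose with KPT-330 (0.94 ± 0.13) and with both drugs (0.69 ± 0.13). DBN1, an actin-binding protein, rose by 1.99 ± 0.22 with KPT-330 and 0.86 ± 0.22 with both. CCND1, the cyclin gene activated in this lymphoma, stood at 0.34 ± 0.22 with KPT-330 without passing (adjusted p = 0.220 by edgeR).

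PAX5 (ENSG00000196092, chromosome 9, 36833275 to 37034185, minus strand), the factor that holds B cell identity, was highest with KPT-330 alone. It read 287, 261 and 233 CPM in DMSO and 373, 364 and 373 in KPT-330, with no overlap (0.51 ± 0.09, adjusted p = 0.000387 by edgeR). In CS it read 263, 293 and 322 CPM, and with both drugs 323, 301 and 272, ranges that overlap DMSO. With both drugs PAX5 lay below KPT-330 alone (-0.31 ± 0.09, adjusted p = 0.0142), a call that was lost without combination replicate 3 (-0.25, adjusted p = 0.0628). Against DMSO it was at 0.20 ± 0.09 with both drugs (adjusted p = 0.0721) and at 0.17 ± 0.09 with CS (adjusted p = 0.276). The first passed in 7 alternatives, among them without DMSO replicate 1 (0.27), CS replicate 3 (0.21) or combination replicate 3 (0.26).

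EBF1 (ENSG00000164330, chromosome 5, 158695916 to 159099761, minus strand), PAX5's partner in lineage commitment, had the narrowest range of group means of the 10 as counted, though not with GC correction, where its range on the log2 scale was 0.23 and that of SOX11 0.16. Its group means ran from 37.8 ± 2.34 CPM in DMSO over 40.3 ± 1.92 in KPT-330 and 41.2 ± 1.65 with both drugs to 42.3 ± 0.53 in CS (SD, n = 3), a ratio of 1.12 between highest and lowest. It passed in none of the 7 comparisons. Its log2 fold changes against DMSO had 95% intervals of -0.05 to 0.24 for KPT-330, 0.02 to 0.31 for CS and -0.02 to 0.27 for both drugs. With GC correction all 3 passed, at 0.23, 0.19 and 0.14, and the last passed without DMSO replicate 3 (0.19, adjusted p = 0.0269 by edgeR).

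IKZF1 (ENSG00000185811, chromosome 7, 50304124 to 50405101, plus strand), the Ikaros gene, moved one way with KPT-330 and the other way with both drugs. It read 325, 340.3 and 346 CPM in DMSO, 327, 331 and 327 in CS, 438, 442 and 439.9 in KPT-330 and 282, 281 and 287 with both. KPT-330 stood above every other library, and the combination below every other. The log2 fold change was 0.39 ± 0.04 with KPT-330 (adjusted p = 1.18e-05 by edgeR) and -0.25 ± 0.04 with both drugs (adjusted p = 0.000297). From KPT-330 alone to both drugs it fell by 0.63 ± 0.04 on the log2 scale. The fall against DMSO was lost when libraries were scaled by size alone (-0.06, adjusted p = 0.111), a scaling that put the median of all genes at 0.23 in place of 0.04. CS and DMSO did not differ by the test (-0.04 ± 0.04, adjusted p = 0.689).

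Targets of PAX5 and EBF1 were described from a list of 26 genes, 24 of them tested, SPIB among them. With KPT-330 13 were higher and 5 lower, with CS 8 and 2, with both drugs 9 and 8, and from KPT-330 alone to both drugs 4 were higher and 12 lower. The shares called were 75.0%, 41.7%, 70.8% and 66.7%, beside 48.5%, 8.88%, 55.5% and 37.6% of all genes. The median log2 fold change was 0.38, 0.21, 0.00 and -0.34, beside 0.04, -0.01, 0.04 and 0.00. The last count, 16 in all, was 10 without combination replicate 3, and the 10 for CS were between 4 and 5 without DMSO replicate 2 or CS replicate 2 or 3. Over all genes, calls went from 7311 to 5636 in the first case and from 1729 to between 760 and 896 in the second. CD22, an inhibitory receptor of B cells, went from 14.0 ± 0.91 CPM in DMSO to 31.4 ± 2.31 in CS, 44.7 ± 0.74 in KPT-330 and 37.8 ± 1.69 with both drugs (SD, n = 3). CD72, another inhibitory receptor, read 33.0 ± 3.09 CPM in DMSO, 68.8 ± 0.52 in KPT-330 and 38.2 ± 1.89 with both drugs. CD72 and CD22 both had their highest group mean with KPT-330 alone, as PAX5 did, and CD22 rose in every treatment. SPIB was among the 5 listed genes that were lower with KPT-330 (-0.35 ± 0.09), and whether targets follow PAX5 was not tested.

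SPIB (ENSG00000269404, chromosome 19, 50418938 to 50431313, plus strand), the ETS factor of mature B cells, had the widest range of group means of the 10, with a ratio of 3.02 between the highest and the lowest. It read 130.2, 117 and 100.2 CPM in DMSO, 108, 116 and 128 in CS, 90.6, 89.7 and 92.5 in KPT-330 and 41.9, 38.7 and 35.8 with both drugs. The combination lay far below all other libraries, and CS lay within the DMSO range. The log2 fold change was -1.58 ± 0.09 with both drugs (adjusted p = 1.22e-08 by edgeR) and -0.35 ± 0.09 with KPT-330 (adjusted p = 0.00616). CS stood at 0.02 ± 0.09 (95% interval -0.19 to 0.23, adjusted p = 0.931). The fall with KPT-330 alone depended on scaling, at -0.19 by library size alone (adjusted p = 0.153), where the median of all genes stood at 0.20 in place of 0.04, and at -0.65 with GC correction.

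SPIB shares exon sequence with CTD-2545M3.6, a protein-coding entry on the same strand, whose reads over all libraries came to 24.4% of SPIB's. That entry was at 22.5 ± 8.59 CPM in DMSO, 25.6 ± 8.29 in CS, 28.1 ± 1.19 in KPT-330 and 10.3 ± 2.69 with both drugs (SD, n = 3), and how reads were split between them is not known. Both entries were lowest with both drugs. By the root mean square difference of centred log2 CPM over the 12 libraries, the genes most like SPIB were AURKB (0.08), ICAM1 (0.10) and PLK1 (0.10). AURKB, a mitotic kinase, was at 59.5 CPM in DMSO, 60.3 in CS, 43.1 in KPT-330 and 20.4 with both drugs. ICAM1, an adhesion molecule, was at 18.1, 16.5, 12.6 and 5.96 CPM, and PLK1, also a mitotic kinase, at 159, 137, 119.9 and 53.3 CPM in the same order.

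POU2AF1 (ENSG00000110777, chromosome 11, 111352252 to 111455630, minus strand), the B cell coactivator also called OCA-B or BOB.1, rose in every treatment. It read 177, 180.4 and 170.5 CPM in DMSO, 207, 202 and 214 in CS, 262, 261 and 260.0 in KPT-330 and 207, 209 and 201 with both drugs, and the DMSO libraries lay below all others. The log2 fold change was 0.57 ± 0.04 with KPT-330 (adjusted p = 4.68e-07 by edgeR), 0.24 ± 0.04 with CS (adjusted p = 0.00585) and 0.22 ± 0.04 with both (adjusted p = 0.000827). CS and the combination did not differ by the test (-0.02 ± 0.04, adjusted p = 0.810). From KPT-330 alone to both drugs it fell by 0.34 ± 0.04.

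POU2F2 (ENSG00000028277, chromosome 19, 42086110 to 42196585, minus strand), which encodes the octamer factor Oct-2 that POU2AF1 assists, was higher with CS, as its coactivator was, and lower than in DMSO with KPT-330 and with both drugs, where POU2AF1 was higher. It read 282, 259 and 232 CPM in DMSO, 305, 320.4 and 360.2 in CS, 227, 217 and 223 in KPT-330 and 219, 197 and 193 with both drugs. CS lay above DMSO (0.35 ± 0.08, adjusted p = 0.0158 by edgeR) and the combination below it (-0.34 ± 0.08, adjusted p = 0.00250). The CS call was lost without DMSO replicate 2 or CS replicate 3, and that of the combination with library size alone (-0.16, adjusted p = 0.160). KPT-330 was at -0.21 ± 0.08 (adjusted p = 0.0418), a call that 11 of the 23 alternatives ended, among them leaving out DMSO replicate 1 or 2, CS replicate 2, any of the KPT-330 replicates or combination replicate 2. With library size alone it was -0.05, and with GC correction -0.42. The combination and KPT-330 did not differ by the test (-0.13 ± 0.08, adjusted p = 0.217).

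Octamer factor targets numbered 12, with SPIB and PRDM1 among them, and 11 were tested. With KPT-330 5 were higher and 4 lower, with CS 2 and 2, and with both drugs 4 and 6, shares of 81.8%, 36.4% and 90.9% beside 48.5%, 8.88% and 55.5% of all genes. The median log2 fold change was 0.27, 0.02 and -0.23. The 4 for CS became 2 without CS replicate 3, where 896 of all genes were called in place of 1729. CD36, a fatty acid receptor and an Oct-2 target, had 35.5 ± 3.26 CPM in DMSO, 15.3 ± 0.80 in CS, 7.35 ± 0.31 in KPT-330 and 0.997 ± 0.189 with both drugs (SD, n = 3), a log2 fold change of -5.16 ± 0.13 with both. BCL2, the antiapoptotic gene, rose with KPT-330 (0.65 ± 0.06), CS (0.61 ± 0.06) and both (1.27 ± 0.06). The 2 genes moved in opposite directions in every treatment.

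IRF4 (ENSG00000137265, chromosome 6, 391739 to 411447, plus strand), needed for the plasma cell and for B cell activation, was lowest with both drugs. It read 91.8, 95.4 and 100.3 CPM in DMSO, 73.7, 81.6 and 77.9 in CS, 102, 103 and 106 in KPT-330 and 54.4, 54.9 and 53.2 with both. The 4 groups did not overlap. The log2 fold change was -0.82 ± 0.05 with both drugs (adjusted p = 3.04e-08 by edgeR) and -0.30 ± 0.05 with CS (adjusted p = 0.00396). KPT-330 alone stood at 0.11 ± 0.05 without passing (adjusted p = 0.0918), and passed in 6 alternatives, among them GC correction (0.16, adjusted p = 0.00133) and leaving out DMSO replicate 3 (0.16, adjusted p = 0.0293). From KPT-330 alone to both drugs IRF4 fell by 0.94 ± 0.05.

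PRDM1 (ENSG00000057657, chromosome 6, 106086320 to 106109939, plus strand), the plasma cell repressor, was low in control cells and lower in every treatment. It read 4.56, 4.89 and 5.09 CPM in DMSO, 3.15, 3.33 and 2.42 in CS, 1.94, 1.58 and 1.82 in KPT-330 and 3.34, 2.51 and 2.70 with both drugs. DMSO lay above all treated libraries and KPT-330 below all others. The log2 fold change was -1.44 ± 0.15 with KPT-330 (adjusted p = 6.86e-06 by edgeR), -0.71 ± 0.15 with CS (adjusted p = 0.0104, lost without CS replicate 3 at -0.56) and -0.76 ± 0.15 with both (adjusted p = 0.000697). The combination stood above KPT-330 alone (0.68 ± 0.16, adjusted p = 0.00427) and did not differ from CS by the test (-0.05 ± 0.15, adjusted p = 0.815).

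By the same measure of likeness, the genes nearest to PRDM1 were CD86 (0.19), NBPF14 (0.21) and MAP1A (0.21). CD86, a costimulatory ligand, was at 104 CPM in DMSO, 70.7 in CS, 48.7 in KPT-330 and 65.2 with both drugs, the order that PRDM1 had. NBPF14 belongs to a family of near-identical copies, so its counts are uncertain.

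BCL6 (ENSG00000113916, chromosome 3, 187721377 to 187745727, minus strand), PRDM1's counterpart in the germinal centre, was highest with both drugs. It read 2.03, 1.81 and 2.26 CPM in DMSO, 1.45, 1.55 and 2.59 in CS, 1.90, 1.70 and 1.54 in KPT-330 and 3.32, 3.89 and 3.83 with both. The combination lay above every other library, and the other 3 groups overlapped. The log2 fold change with both drugs was 0.85 ± 0.20 against DMSO (adjusted p = 0.00227 by edgeR), 1.10 ± 0.20 against KPT-330 (adjusted p = 0.000761) and 0.96 ± 0.20 against CS (adjusted p = 0.00115). KPT-330 alone stood at -0.25 ± 0.20 (95% interval -0.72 to 0.23) and CS at -0.11 ± 0.20 (-0.58 to 0.36), neither past the threshold.

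Read as a ratio within each library, BCL6 over PRDM1 was between 0.370 and 0.446 in DMSO, 0.460 and 1.07 in CS, 0.846 and 1.07 in KPT-330 and 0.994 and 1.55 with both drugs. All 9 treated libraries lay above the DMSO range. CS replicates 1 and 2 did so only narrowly, at 0.460 and 0.466 on 63 and 75 BCL6 reads. CS replicate 3 was at 1.07 on 151 reads. With KPT-330 alone PRDM1 was lower than in DMSO and BCL6 did not pass, and with both drugs PRDM1 was lower and BCL6 higher than in DMSO. The ratio was not tested by itself.

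Germinal centre genes, BCL6 included, numbered 19 with 17 tested. With KPT-330 11 were higher and 4 lower, with CS 5 and 4, and with both drugs 10 and 5, shares of 88.2%, 52.9% and 88.2% beside the same 48.5%, 8.88% and 55.5%. The list's median log2 fold change was 0.30, -0.01 and 0.54 in turn, beside 0.04, -0.01 and 0.04 for all genes. GCSAM, a germinal centre signalling adaptor, went from 50.1 ± 6.70 CPM in DMSO to 133 ± 2.10 in KPT-330, 76.4 ± 3.33 in CS and 122 ± 5.06 with both (SD, n = 3). HMCES, a guardian of abasic DNA sites, went from 31.5 ± 0.14 CPM in DMSO to 114 ± 1.91 with both drugs. EZH2, the Polycomb methyltransferase of the germinal centre, was lower with both (-0.90 ± 0.06) and stood at -0.05 ± 0.06 with KPT-330 without passing.

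Plasma cell genes, with PRDM1 and IRF4 among 28, had 27 tested. With KPT-330 9 were higher and 10 lower, with CS 2 and 6, and with both drugs 9 and 13. The shares called were 70.4%, 29.6% and 81.5%, beside 48.5%, 8.88% and 55.5% of all genes, which also went both ways. The median log2 fold change was -0.10, -0.07 and -0.28. XBP1, the secretory programme's factor, fell with KPT-330 from 21.5 ± 1.02 to 8.67 ± 0.70 CPM and was at 14.6 ± 0.33 CPM with both drugs (SD, n = 3). TNFRSF17, the BCMA receptor gene, rose with KPT-330 (1.00 ± 0.09) and with both (1.06 ± 0.09).

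Genes that BCL6 is known to repress, PRDM1 included, numbered 21, all tested. With KPT-330 5 were higher and 11 lower, with CS 3 and 5, and with both drugs 6 and 11, or 76.2%, 38.1% and 81.0% of the list beside 48.5%, 8.88% and 55.5% of all genes. The median log2 fold change was -0.23, -0.21 and -0.34. The 8 for CS lay between 3 and 14 with 1 library left out, 3 without DMSO replicate 2 or CS replicate 2 or 3 and 14 without DMSO replicate 1. Calls over all genes moved too, from 1729 to 2580 without DMSO replicate 1. They were 817 without DMSO replicate 2 and 760 or 896 without CS replicate 2 or 3. ID2, an inhibitor of E proteins, was lower in every treatment (-0.85 ± 0.05 with KPT-330, -0.52 ± 0.05 with CS and -0.83 ± 0.05 with both). GPR183, a receptor that guides B cells out of the follicle, fell with KPT-330 (-1.16 ± 0.08). CCND2, a D-type cyclin gene, rose with both (1.29 ± 0.15).

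**Figure D3:**
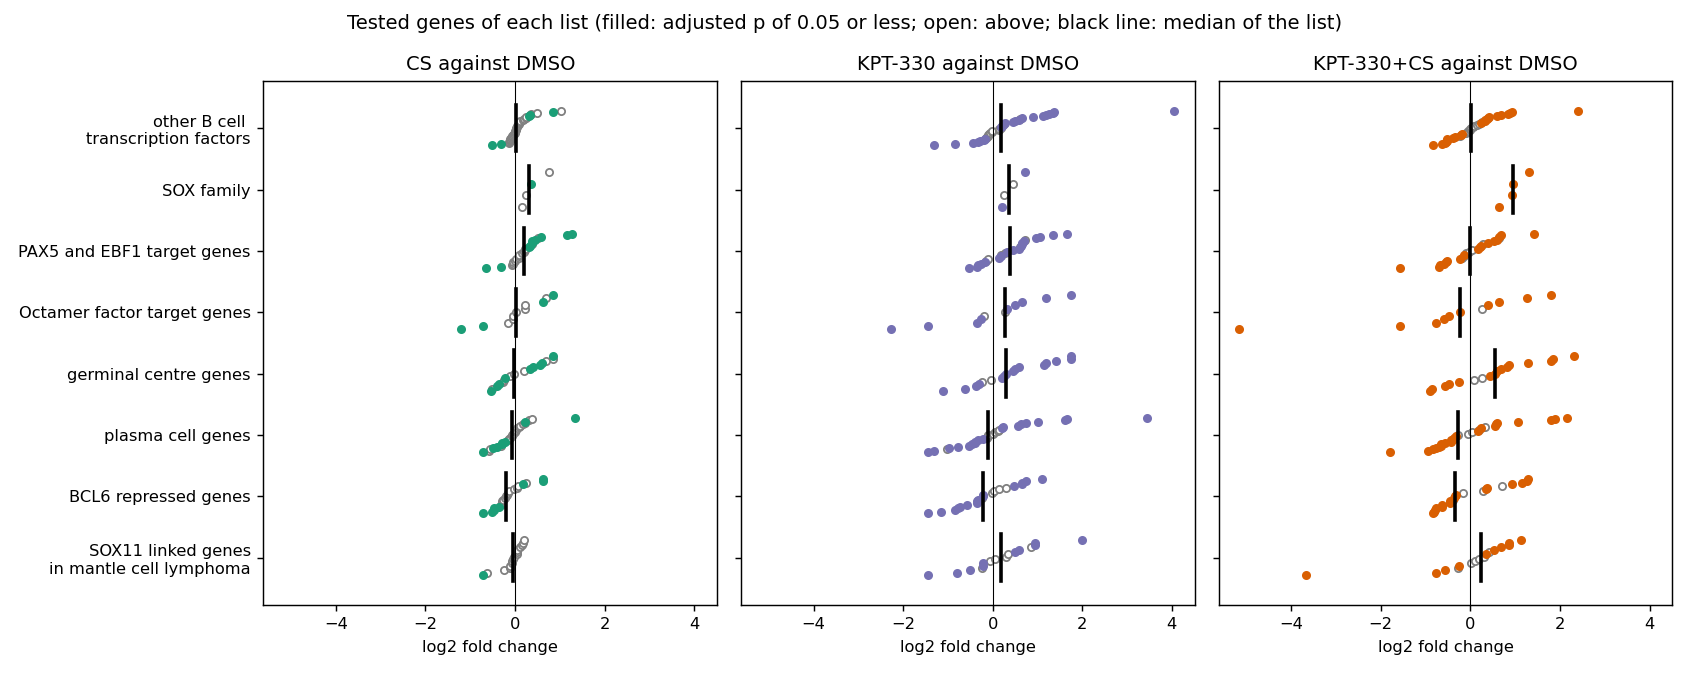
Log2 fold change of every tested gene of each list (1 row per list, 1 point per gene) in CS, KPT-330 and KPT-330 with CS against DMSO; filled points have an adjusted p of 0.05 or less and the black line is the list's median. Of the 24 tested PAX5 and EBF1 targets 13 are higher with KPT-330, and all 4 tested SOX genes are higher with both drugs.

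The other transcription factors of the B lineage were taken from a list of 35 genes, all tested and none of them among the 10. With KPT-330 16 were higher and 7 lower, with both drugs 12 and 11, and from KPT-330 alone to both drugs 3 were higher and 16 lower. These were 65.7%, 65.7% and 54.3% of the list, beside 48.5%, 55.5% and 37.6% of all genes. CS raised 3 and lowered 2 (14.3%, beside 8.88%), a count of 5 that ran from 2 to 15 over the alternatives and from 2 to 9 with 1 library left out. It was 9 without DMSO replicate 1, 2 without DMSO replicate 2 or CS replicate 2, and 3 without CS replicate 3, any KPT-330 replicate or combination replicate 2. Over all genes the CS calls, 1729 in the main fit, were 2580 without DMSO replicate 1. They were between 760 and 896 without DMSO replicate 2 or CS replicate 2 or 3, and between 1262 and 1301 in the others. LEF1, a factor of the Wnt pathway made in early B cells, rose with KPT-330 (1.35 ± 0.08). MYB, a factor of progenitors, rose with both drugs from 67.6 ± 5.41 to 129 ± 5.47 CPM (SD, n = 3). BACH2, which opposes PRDM1, rose with CS (0.34 ± 0.05) and with KPT-330 (0.45 ± 0.05). SPI1, the close relative of SPIB, stood at 0.60 ± 0.25 with KPT-330 without passing (adjusted p = 0.0607 by edgeR).

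The effects of the single drugs did not add up to that of the combination for most of the factors. The interaction passed for 8 of the 10, against 14.7% of all genes. It was below 0 for PAX5, SPIB, POU2AF1, POU2F2, IRF4 and IKZF1 and above 0 for PRDM1 and BCL6, with a median of -0.48 beside 0.01 for all genes. SPIB's single-drug log2 fold changes summed to -0.33 where the combination gave -1.58, an interaction of -1.25 ± 0.13 (adjusted p = 5.84e-05 by edgeR). PRDM1 was the reverse case, with a sum of -2.15 and a combination at -0.76 (interaction 1.39 ± 0.22, adjusted p = 0.00111).

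The signs of sum and combination differed for 3 genes. For IKZF1 the sum was 0.35 and the combination -0.25 (interaction -0.60 ± 0.06, adjusted p = 6.43e-05 by edgeR). For POU2F2 they were 0.14 and -0.34 (-0.48 ± 0.11, adjusted p = 0.0129), and for BCL6 -0.36 and 0.85 (1.21 ± 0.28, adjusted p = 0.0130). The BCL6 call was lost (0.95, adjusted p = 0.0517) when 1 library each of DMSO, CS and the combination, that with the lowest GC slope described further on, was left out. IRF4 had a sum of -0.19 and a combination at -0.82 (-0.63 ± 0.07, adjusted p = 0.000172).

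POU2AF1 had a sum of 0.81 and a combination at 0.22 (-0.58 ± 0.06, adjusted p = 9.08e-05 by edgeR), and PAX5 a sum of 0.68 and a combination at 0.20 (-0.48 ± 0.12, adjusted p = 0.0216). PAX5's call was lost without DMSO replicate 2, CS replicate 2 or 3, KPT-330 replicate 1 or 3, or combination replicate 3, with an adjusted p of at most 0.0537. For EBF1 the interaction was -0.13 ± 0.09 (adjusted p = 0.352). SOX11 and EBF1 were the 2 whose interaction did not pass.

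**Figure D4:**
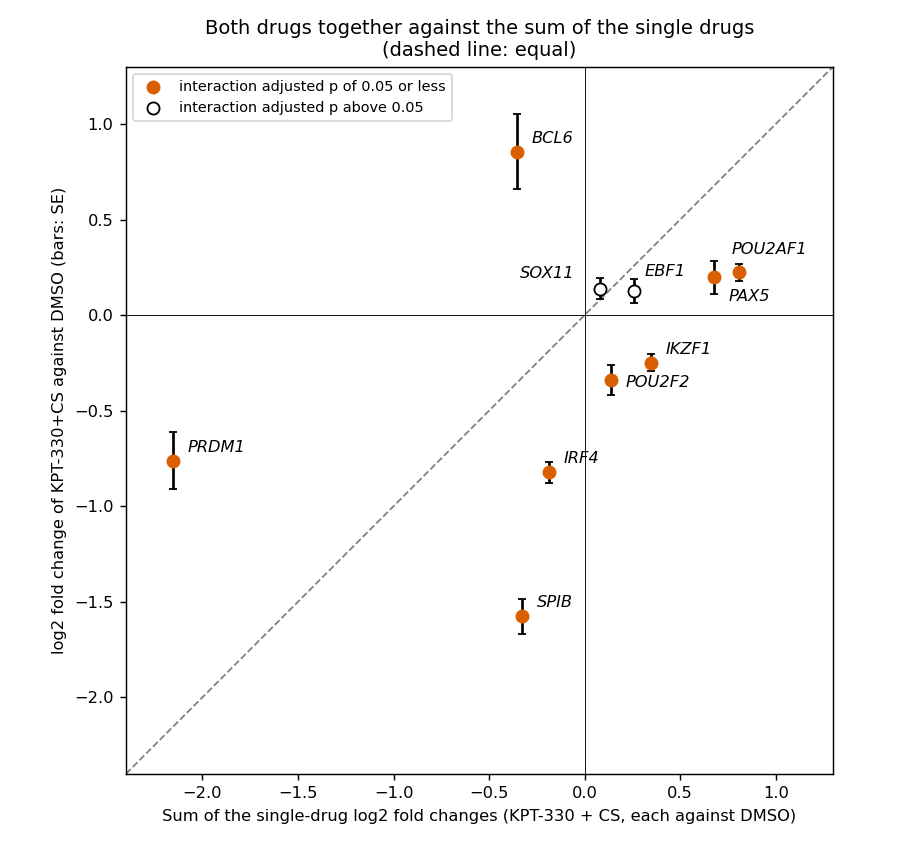
Log2 fold change of KPT-330 with CS against DMSO (bars: SE) plotted over the sum of the log2 fold changes of KPT-330 and CS alone; the dashed line marks equality. Filled points passed the interaction test: SPIB, IRF4, IKZF1, POU2F2, PAX5 and POU2AF1 lie below the line, and PRDM1 and BCL6 above it.

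The interaction also passed for 12 of the 24 tested PAX5 and EBF1 targets, all 12 of them below 0, with a median of -0.55 over the list. Of all genes 6.62% were below and 8.04% above 0. CD22 (-1.40 ± 0.10) and CD72 (-1.22 ± 0.11) were among them. Of the 35 other B lineage factors 11 were below and 3 above 0. The 14 in all became 8 or 9 without DMSO replicate 2, CS replicate 2 or 3, any of the KPT-330 replicates or combination replicate 2. Over all genes the interaction calls went from 2853 to between 1713 and 1873 in these settings. NFATC1, a calcium-regulated factor, was at -1.14 ± 0.12 and XBP1 at 0.89 ± 0.12. Of the 21 BCL6-repressed genes 6 were above 0, GPR183 at 0.99 ± 0.12 among them, and 1 below.

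Libraries of the same group differed in how counts depended on the GC content of genes, and some of the 10 moved with that slope. The slope, in log2 counts per 10 GC points, was 0.087, -0.130 and -0.314 in DMSO replicates 1 to 3, -0.229, -0.102 and 0.059 in CS, 0.128, 0.026 and -0.150 with both drugs, and 0.203, 0.195 and 0.228 in KPT-330. PAX5 (53.6% GC), SPIB (56.9%) and POU2F2 (54.9%) followed the order of the slopes within DMSO, within CS and within the combination. POU2AF1, of like GC content (53.4%), followed neither that order nor its opposite in any of these groups. SOX11 (48.6% GC) ran in the opposite order within DMSO and within CS. With GC correction the SD of log2 CPM in DMSO went from 0.15 to 0.03 for PAX5, from 0.19 to 0.04 for SPIB and from 0.14 to 0.02 for POU2F2, and from 0.10 to 0.09 for SOX11. That SD went up from 0.04 to 0.09 for POU2AF1 and from 0.16 to 0.17 for BCL6. Within CS it also went up for POU2AF1, from 0.04 to 0.08.

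KPT-330 had the highest slopes, which overlap no other group, so slope and this treatment cannot be told apart. After GC correction the log2 fold change with KPT-330 was 0.36 for PAX5, -0.65 for SPIB, 0.42 for POU2AF1, -0.42 for POU2F2, -1.36 for PRDM1 and 0.41 for IKZF1. All 6 kept their direction and their call. With both drugs SPIB was at -1.71, IRF4 at -0.86 and BCL6 at 0.79. The interaction of EBF1 passed only here (-0.28, adjusted p = 0.00428 by edgeR) among the alternatives run.

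**Figure D5:**
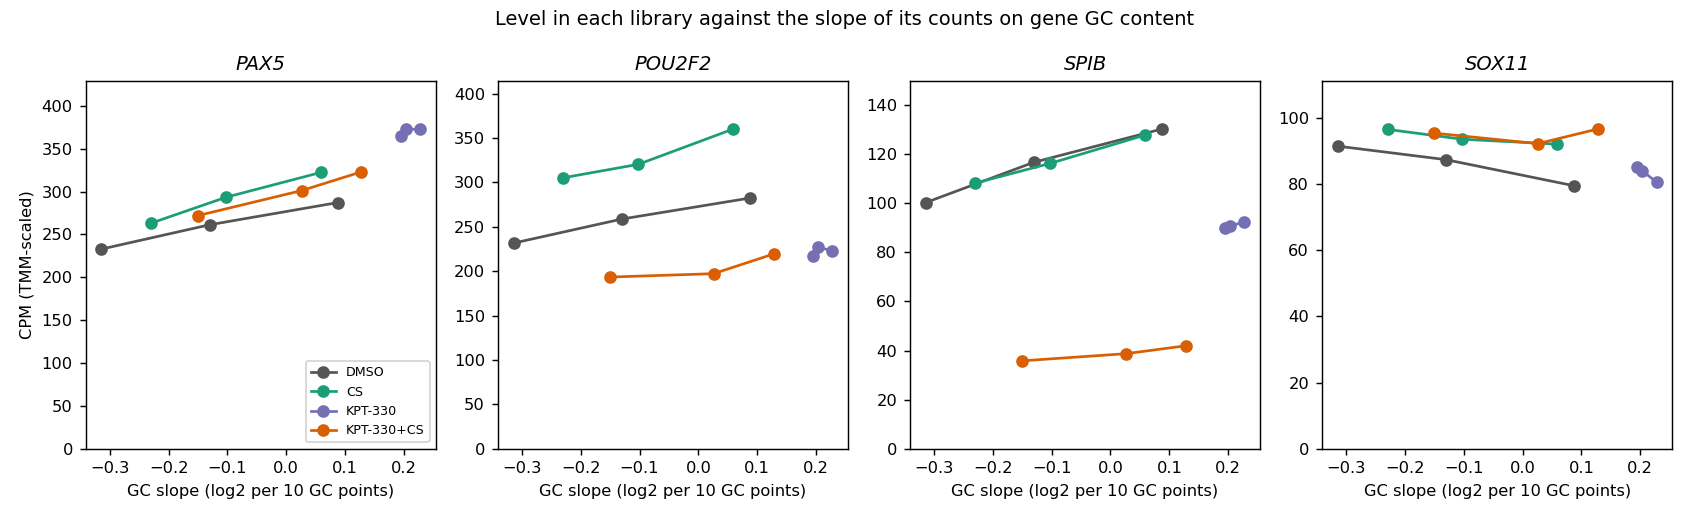
CPM (linear axis from 0) of PAX5, POU2F2, SPIB and SOX11 in each library over that library's slope of log2 counts on gene GC content (log2 per 10 GC points); colours are groups, and lines join the libraries of a group in order of slope. Within DMSO, CS and the combination the first 3 genes are higher in libraries with a higher slope, and the KPT-330 libraries sit together at 0.195 to 0.228.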

How the data were processed

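RNA of 12 JEKO-1 libraries, 3 in each of 4 groups taken from the labels, was sequenced from poly(A)-selected libraries after 48 h. Per the series design text, the authors aligned reads to hg38 with STAR in a modified MAP-RSeq workflow and deposited whole-number gene counts on Ensembl version 78. Gene lengths in bases stand beside the deposited counts. No source used here gives the counting program or its strand setting, so reads of overlapping genes cannot be told apart. Depth was 35325563 to 59490178 counts per library.

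Testing used edgeR 4.0.16 and R 4.3.3 (filterByExpr, TMM, robust quasi-likelihood F-test, two-sided), with all 12 libraries in 1 fit, group as the only term and 8 residual degrees of freedom. Adjusted p-values are Benjamini-Hochberg over 19460 genes. SE is the absolute log2 fold change over the square root of F, approximate for genes with few reads. CPM uses TMM-scaled sizes, and RPKM divides CPM by the deposited length. GC content came from the longest GENCODE 44 transcript of a gene, and GC offsets from a lowess (span 0.3). Alternatives were no filter, 1 CPM in 3 libraries, DESeq2 size factors, library size alone, DESeq2 1.42.0, the likelihood ratio test, limma 3.58.1 voom, the replicate block, GC correction, compared groups alone, and leaving libraries out. With a library left out, the spread came from all groups together.

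The genes and lists were chosen with earlier results of these data known. All 10 genes are described in every comparison. From each list, genes were taken from the 4 that passed with the largest change (1 CPM or more in the higher group) and 2 that did not, and likeness was computed for the 2 genes of widest range among genes of at least 5 CPM. Of the genes this rule names, 1 is not reported here. SOX6, below that level, is named because it completes the tested SOX genes. Steps were tested on simulated data. Figures were drawn with matplotlib 3.10.9.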

Additional observations from a re-analysis of the deposited data

Results flagged for a closer look

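For 8 of the 10 genes the effect of CS differed between cells with and without KPT-330, by the interaction term of edgeR's model over all genes. Of all genes 14.7% passed. The 8 were PAX5 (-0.48), SPIB (-1.25), POU2AF1 (-0.58), POU2F2 (-0.48), IRF4 (-0.63), IKZF1 (-0.60), PRDM1 (1.39) and BCL6 (1.21), all on the log2 scale. The PAX5 call was lost in 6 of 22 alternatives and the BCL6 call in 1. SPIB shows it most plainly: CS alone left it at 117 ± 9.84 CPM beside 116 ± 15.0 in DMSO (SD, n = 3), and CS with KPT-330 took it from 91.0 ± 1.40 to 38.8 ± 3.06 CPM. PRDM1 went the other way, from 4.85 ± 0.27 to 2.97 ± 0.48 CPM with CS alone and from 1.78 ± 0.18 to 2.85 ± 0.44 CPM with CS on top of KPT-330.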

How the results depend on the processing

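Over 70 log2 fold changes of the 10 genes and up to 23 alternatives each, 1525 of 1600 values kept direction and side of the threshold, 42 lost the call, 33 gained it and 0 reversed while called; 32 of the 46 called values kept their call throughout. The 4 genes called for CS against DMSO were 7 with GC correction, where 4563 of all genes were called in place of 1729. They were 0 with the compared groups alone, where 249 of all genes were called. With 1 library left out they were between 2 (without CS replicate 3) and 4. The cause was not tested. In the listed genes, the CS counts became 2 of 5 for other B lineage factors, 3 of 10 for PAX5 and EBF1 targets, 2 of 4 for octamer targets, 4 of 9 for germinal centre, 0 of 8 for plasma cell and 2 of 8 for BCL6-repressed genes with the compared groups alone. With GC correction other factors had 15, plasma cell genes 14 and BCL6-repressed genes 14.

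The labels number replicates alike in each group and do not say whether equal numbers mark pairs. Over 18 same-number pairs the correlation of deviations ran from -0.38 to 0.40, with 2 above 0.1. Pairs of unlike number were not compared, so these values cannot decide whether samples are paired. With the replicate block the called genes of the 10 were 5 for KPT-330 (POU2F2 at -0.21, adjusted p = 0.0640), 4 for CS, 7 for both drugs, 8 for both against KPT-330 and 8 for the interaction. Of all genes the block called 8730, 1036, 10278, 6476 and 1958 in the same order. The block gave 2, 5 and 5 called genes with CS for other factors, PAX5 and EBF1 targets and BCL6-repressed genes. Depth limits BCL6 and PRDM1 most, with as few as 63 reads in a library.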
